A study of Mus musculus with 9 samples.

Results

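Mybl1, Tcfl5, Sox30, Rfx2, Crem, Pou5f2, Tbpl1, Taf7l, Gtf2a1l and Brdt encode transcription regulators that act in meiotic germ cells and in spermatids. These 10 genes were chosen by name from the 32285 genes of the count matrices, and each was found there under its symbol. Their transcripts were counted by single cell RNA-seq (scRNA-seq) of whole testes from male C57BL/6 mice (a C57BL/6 J background, per the methods of the study) at postnatal day 24 (PND24), with 1 library per mouse. The control mice (n = 4), called wild type in the study, were littermates or non-littermates of the mutants, and the labels name no allele of theirs. NELF-B cKO mice (n = 2) had 1 null Nelfb allele and 1 allele with loxP sites around exons 1 to 4, and TDP-43 cKO mice (n = 3) had 1 null Tardbp allele and 1 allele with loxP sites around exon 3. All cKO mice also carried Stra8-iCre, in which the Stra8 promoter drives Cre in spermatogonia (SG), so that somatic cells keep the floxed allele beside the null one. NELF-B is a subunit of the complex that holds RNA polymerase II paused close to promoters, and TDP-43 is a DNA and RNA binding protein. The comparison of the genotypes asks whether the regulators of the meiotic and spermatid programs are transcribed in their usual amounts when NELF-B or TDP-43 is lost from SG.

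Each captured transcript was counted once by its UMI (unique molecular identifier), read at the 3′ end. Cells were clustered without the 10 genes, and clusters were named from stage markers as SG, spermatocytes (SC) from the preleptotene (pL), leptotene (L) and zygotene (Z) to the pachytene (P) and diplotene (D) stage, round spermatids (RS) and somatic cells, which gave 24270 named cells. UMIs were summed per mouse and stage, and levels are given in CPM, the UMIs of a gene for every 1000000 UMIs of that sum. A stage was used in a mouse with at least 20 cells. Log2 fold changes are cKO minus control and are given ± SE, and a gene was called at an adjusted p under 0.05 over all genes tested. All stages passed in the control mice, where a mouse had 98 to 490 cells of a stage. P, D and RS had 143, 302 and 132 cells in NELF-B cKO replicate 1 and fewer than 20 in replicate 2. In TDP-43 cKO replicates 2 and 3, P had 66 and 45 cells and D had 71 and 51, RS had 20 cells in replicate 3, and replicate 1 had at most 3 cells of each of these stages. L had 98 to 183 cells in the control mice, 70 and 1 in NELF-B cKO and 0, 10 and 0 in TDP-43 cKO, so L was not compared on its own and sums with L hold almost none of it in 4 of the 5 cKO mice. The libraries held 119203347 to 159407373 UMIs, and any pair shared at most 0.355% of the barcodes of the smaller one. In SG, Nelfb had 62.3 to 76.9 CPM in control and 4.88 to 6.07 CPM in NELF-B cKO, with a log2 fold change of -3.64 ± 0.15 (adjusted p = 1.96e-05). Tardbp in SG ranged from 64.0 to 69.7 CPM in control and from 31.0 to 35.6 CPM in TDP-43 cKO, with a log2 fold change of -0.97 ± 0.08 (adjusted p = 0.00709), but a 3′ UMI lies outside exon 3 and does not report on its deletion.

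The germ line uses its own versions of several parts of the transcription machinery. A-MYB, the product of Mybl1, switches on pachytene genes, among them those of the piRNA pathway, and TCFL5 is a basic helix-loop-helix factor of meiotic cells. BRDT, a bromodomain protein of the BET family, reads acetylated histones. RFX2 drives genes of the flagellum, SOX30 activates genes of spermatids, CREM is the cyclic AMP response factor that activates protamine and transition protein genes in RS, and POU5F2 (Sprm1) is a POU domain factor of the testis. TBPL1, TAF7L and GTF2A1L are relatives of the general factors TBP, TAF7 and TFIIA, which assemble RNA polymerase II at promoters.

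Promoter windows from RefSeq (GRCm38.p6), each 250 bases before to 50 bases after the start of transcription, were found for 8 of the 10 genes and not for Mybl1 and Crem. The core of the MYB site, AACNG on either strand, was in all 8 windows, but 80.3% of the 32851 windows in the table hold these 5 letters. GTTGCC, a part of the X-box, the site of RFX factors, was in the windows of Rfx2 and Gtf2a1l and in 12.5% of all windows. The E-box CACGTG was in those of Taf7l and Brdt (7.15% of all), the SOX core ACAAT in those of Sox30 and Taf7l (31% of all), and the TATA box TATAAA in that of Taf7l alone (13.6% of all). The cyclic AMP response element TGACGTCA was in none of the 8 and in 1.79% of all, and its part TGACG was in that of Rfx2 and in 20.8% of all. Both strands were searched, and GTTGCC read on the other strand is GGCAAC. The 160 bases before the start are printed for 5 genes that differ in these letters and whose levels are followed below, 5′ to 3′ on the strand of the gene, with the searched motifs in capitals. The GTTGCC of Gtf2a1l, the TGACG of Rfx2 and the ACAAT of Taf7l lie further upstream than these bases. The printed stretches are at chr2:180642692-180642851 (minus strand), chr11:45980150-45980309 (plus), chr17:56831009-56831168 (minus), chr17:88668500-88668659 (plus) and chrX:134476491-134476650 (minus).
Tcfl5: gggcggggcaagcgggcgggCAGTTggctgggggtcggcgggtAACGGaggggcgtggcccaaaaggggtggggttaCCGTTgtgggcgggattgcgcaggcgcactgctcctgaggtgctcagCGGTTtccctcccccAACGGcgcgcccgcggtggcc
Sox30: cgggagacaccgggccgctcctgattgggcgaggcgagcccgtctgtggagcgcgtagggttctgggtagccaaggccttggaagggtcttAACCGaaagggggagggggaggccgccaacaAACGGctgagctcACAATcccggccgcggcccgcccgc
Rfx2: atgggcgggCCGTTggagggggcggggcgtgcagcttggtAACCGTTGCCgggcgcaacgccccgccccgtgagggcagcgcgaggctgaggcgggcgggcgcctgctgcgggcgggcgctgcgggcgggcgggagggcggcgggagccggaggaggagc
Gtf2a1l: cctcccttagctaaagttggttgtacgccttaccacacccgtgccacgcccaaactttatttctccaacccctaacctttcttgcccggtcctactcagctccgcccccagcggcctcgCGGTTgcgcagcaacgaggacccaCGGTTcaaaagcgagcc
Taf7l: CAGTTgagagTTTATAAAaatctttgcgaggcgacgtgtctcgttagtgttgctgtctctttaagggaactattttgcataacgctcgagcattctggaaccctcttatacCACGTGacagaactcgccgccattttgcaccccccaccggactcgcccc
In Rfx2, 2 MYB cores on opposite strands and the X-box motif share bases in the run AACCGTTGCC. In Taf7l the TATA box overlaps itself on the other strand. Tcfl5 holds 5 MYB cores within these 160 bases, Sox30, Rfx2 and Gtf2a1l 2 or 3 each, and Taf7l 1. A match of letters is a description and not evidence of binding.

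In the GRCm38 build with the GENCODE M21 annotation, Mybl1 (ENSMUSG00000025912) lies on chromosome 1 from 9667415 to 9700209 on the minus strand, Tcfl5 (ENSMUSG00000038932) on chromosome 2 from 180621956 to 180642708 on the minus strand, and Brdt (ENSMUSG00000029279) on chromosome 5 from 107331159 to 107387058 on the plus strand. Rfx2 (ENSMUSG00000024206) lies on chromosome 17 from 56775897 to 56831013 on the minus strand, Sox30 (ENSMUSG00000040489) on chromosome 11 from 45980310 to 46017994 on the plus strand, Crem (ENSMUSG00000063889) on chromosome 18 from 3266048 to 3337748 on the minus strand, and Pou5f2 (ENSMUSG00000093668) on chromosome 13 from 78024902 to 78026295 on the plus strand. Tbpl1 (ENSMUSG00000071359) lies on chromosome 10 from 22703879 to 22731938 on the minus strand, Taf7l (ENSMUSG00000009596) on chromosome X from 134460118 to 134476490 on the minus strand, and Gtf2a1l (ENSMUSG00000024154) on chromosome 17 from 88668660 to 88715152 on the plus strand. Taf7l is the 1 gene of the 10 on a sex chromosome, where transcription is shut down in P SC of the male. Pou5f2 consists of 1 exon and lies whole within Fam172a on the same strand, so reads of the 2 genes cannot be fully told apart. Tcfl5, Crem and Tbpl1 overlap a gene of the opposite strand by 234 bases (Col9a3), 1069 bases (Gm6225) and 407 bases (Slc2a12). Crem is annotated with 39 transcripts, and its 3′ UMIs do not separate forms that activate from forms that repress.

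In the control mice, the 10 genes reached their highest mean level at different stages from L to RS. These levels describe the stages and were not tested, since the stages are clusters of the same cells. CPM is a share of the UMIs of a stage, and the UMIs per cell differed between stages. Control replicate 1 had medians of 16247 UMIs per cell in SG, 9406 in pL, 6294 in L and 14246 in Z. Its medians were 50702 in P, 60110 in D and 26767 in RS. A fall in CPM between stages is thus not shown to be a fall in UMIs per cell. The onset of a gene was taken as the first stage with at least 50% of its highest mean. Onset fell in SG for Taf7l, in L for Mybl1, Sox30 and Brdt, in Z for Tcfl5 and Rfx2, in D for Pou5f2, Tbpl1 and Gtf2a1l, and in RS for Crem. Taf7l was thus the 1 gene already at over 50% of its highest level before meiosis. These stages were not fixed for every gene. At clustering resolution 1.2, Sox30 was highest in Z and Gtf2a1l in RS, with its onset in P. With the control cells that held a Nelfb UMI left out, the onset of Crem was in D, and with those that held a Tardbp UMI left out, the onset was in D for Tcfl5 and Crem and in L for Rfx2, which was then highest in D. Without control replicate 3, Sox30 was highest in Z and Gtf2a1l in RS.

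**Figure D1:**
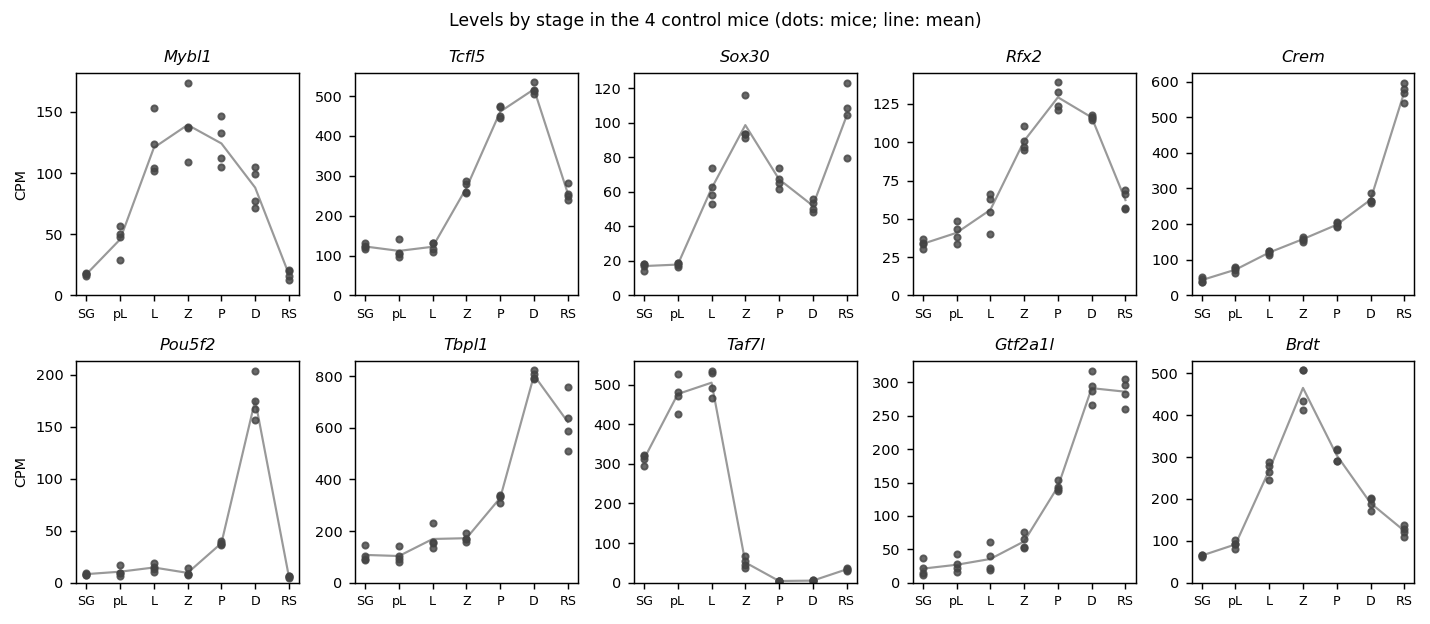
Level of each gene (CPM, linear axis from 0, with its own scale in each panel) in SG, pL, L, Z, P, D and RS of the 4 control mice; dots are mice and the line joins their means. Mybl1 and Brdt are highest in Z, Pou5f2 and Tbpl1 in D and Crem in RS, while Taf7l is high from SG to L and lowest in P.

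Mybl1 had 17.5, 18.7, 17.6 and 15.6 CPM in SG across the 4 control animals, 28.9, 56.5, 50.5 and 47.4 CPM in pL, and 124, 154, 102 and 104 CPM in L. It was highest in Z, with 109, 174, 138 and 137 CPM, and had 105, 147, 133 and 112 CPM in P. Z and P overlapped between mice, though each mouse was lower in P than in Z. The rise from SG to pL and from pL to L separated all 4 mice at each step. The level then fell to 71.1 to 105 CPM in D and 12.3 to 20.8 CPM in RS. Brdt followed a similar course, with 66.8, 64.3, 67.1 and 61.2 CPM in SG, 245 to 288 CPM in L and 411, 508, 508 and 433 CPM in Z. All 4 mice were higher in Z than in L or P (289.7 to 319.5 CPM), and Brdt still had 109 to 138 CPM in RS. Tcfl5 was flat from SG (116 to 130.4 CPM) to L (109 to 132 CPM) and then rose at each step, to 287, 256, 259 and 279 CPM in Z, 444 to 476 CPM in P and 513, 506, 515 and 535 CPM in D. In RS it was back at 238 to 282 CPM, a range that overlaps that of Z.

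Rfx2 rose from 33.7, 34.3, 36.7 and 30.2 CPM in SG to 95.2, 110.4, 101 and 96.9 CPM in Z and 121, 139.6, 133 and 124 CPM in P. P lay above D (115 to 118 CPM) in all 4 mice, and RS had 56.6 to 69.1 CPM. Sox30 had 2 maxima, with 91.3, 117, 93.6 and 93.8 CPM in Z, 48.7 to 55.9 CPM in D and 105, 79.5, 123 and 109 CPM in RS. Z and RS overlapped, so their order is not settled, and D lay below both in all mice. Crem rose at every step without overlap between mice, from 51.1, 37.0, 46.4 and 37.7 CPM in SG through 62.2 to 79.1 CPM in pL, 113 to 125 CPM in L, 151 to 165 CPM in Z, 193 to 205 CPM in P and 258 to 287 CPM in D to 595, 567, 541 and 579 CPM in RS. Pou5f2 was high in D alone, with 167, 175, 157 and 204 CPM in D against 38.1, 40.5, 36.2 and 37.6 CPM in P and 6.86, 6.03, 5.44 and 4.33 CPM in RS. Its level in SG, 7.65 to 9.22 CPM, lay below that in L (10.5 to 19.2 CPM) and overlapped that in Z (7.23 to 14.1 CPM).

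Tbpl1 and Gtf2a1l, relatives of TBP and of the large subunit of TFIIA, rose together late in meiosis. Tbpl1 had 146, 87.4, 104 and 93.5 CPM in SG, 158 to 192 CPM in Z, 307 to 342 CPM in P and 809.9, 792, 788 and 823 CPM in D, and D lay above RS (509 to 756 CPM). Gtf2a1l had 36.4, 11, 22.1 and 15.2 CPM in SG, 52.7 to 76.3 CPM in Z, 138 to 153 CPM in P, 318, 266, 288 and 294 CPM in D and 305, 283, 259.9 and 297 CPM in RS, where D and RS overlapped. Over the 28 values of 7 stages in 4 mice, the log2 levels of this pair had a Pearson correlation of 0.968, the highest among the 10 genes. Taf7l, the relative of TAF7, went the other way. It had 311, 323, 321 and 295 CPM in SG, 426, 526, 482 and 470.2 CPM in pL and 491, 529, 534 and 465 CPM in L, then dropped to 37.8, 54.8, 67.2 and 45.2 CPM in Z and 4.05, 3.81, 5.64 and 4.18 CPM in P. L lay above P in all 4 mice. D had 4.70 to 5.99 CPM, and in RS Taf7l was back at 33.1, 38.5, 29.6 and 34.2 CPM. Its correlation with Tcfl5 over the same 28 values was -0.985, the lowest among the 10.

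Counted by step, 4 of the 10 genes were higher in pL than in SG with no overlap between the 4 control mice and 6 overlapped, where 26.3% of the 10303 genes with a mean of at least 10 CPM rose in this way and 21.1% fell. From pL to L, 4 rose (background 24.2%) and 0 fell (23.5%). From L to Z, 5 rose (20.6%) and Taf7l fell (29.9%). From Z to P, 6 rose (26.3%) and Sox30, Brdt and Taf7l fell (42.7%). From P to D, 5 rose (24.1%) and 4 fell (47.6%), and from D to RS 3 rose (25.5%) and 6 fell (50.2%). The genes were listed as regulators of these stages, so these counts carry no test. Ranges were compared, and not each mouse with itself. Gtf2a1l, higher in pL than in SG in 4 of 4 mice, thus counted as overlapping.

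Among the same 10303 genes, those whose log2(CPM + 1) values over the 28 samples of the control mice correlated best with each gene were found. Values of 1 mouse come from 1 library, and genes that share a stage share these correlations. The closest to Taf7l were the X-linked genes Usp26 (r = 0.993), Phka2 (r = 0.991) and Bcap31 (r = 0.990). Those of Gtf2a1l were Lrrc46 (r = 0.990), Rsph9 (r = 0.990) and Lypd4 (r = 0.990), and those of Tbpl1 were Zpbp2 (r = 0.987), Slc2a5 (r = 0.986) and 4931417E11Rik (r = 0.985). Tcfl5 was closest to Pwwp3a (r = 0.988), Rp9 (r = 0.986) and Spag6l (r = 0.983), and Crem to Spata6 (r = 0.977), Sucla2 (r = 0.974) and Saysd1 (r = 0.972). Brdt was closest to 4930524B15Rik (r = 0.976), Nek4 (r = 0.966) and Rab11fip2 (r = 0.966), Mybl1 to Senp2 (r = 0.978), Eloa (r = 0.964) and Arhgap19 (r = 0.962), and Rfx2 to Dnah7a (r = 0.968), Tmprss12 (r = 0.966) and 4933440M02Rik (r = 0.962). Sox30 was closest to 1700020N01Rik (r = 0.958), Gm13830 (r = 0.950) and Oxsm (r = 0.943), and Pou5f2 to Efcab8 (r = 0.969), Kat5 (r = 0.939) and Ift46 (r = 0.937).

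The low levels in SG were set beside RNA that is free in the suspension, since transcripts released by broken cells can enter every droplet. Barcodes with 1 to 100 UMIs, which hold such RNA, had 277, 185, 227 and 236 Gtf2a1l CPM in the 4 control libraries, above the 11 to 36.4 CPM of their SG. Leydig cells, which should lack Gtf2a1l, had 26.7, 5.47, 23.4 and 17.9 CPM. Free RNA was estimated from spermatid genes in Leydig and immune cells to be 4.06% to 8.59% of the UMIs of a cell in the control mice, 5.95% and 9.47% in NELF-B cKO, and 22.1%, 7.64% and 7.36% in TDP-43 cKO. At these shares, which are estimates and can pass the whole of a level, it would make up 63.1% to 110% of the Gtf2a1l level in SG of the control mice, 31.7% to 58.3% of Crem, 23.4% to 52.1% of Pou5f2 and 22.3% to 40.3% of Tbpl1, against 0.563% to 1.28% of Taf7l. Crem had 37.0 to 51.1 CPM in SG and 67.3 to 76.6 CPM in Leydig cells of the control mice, and Pou5f2 had 7.65 to 9.22 and 6.28 to 9.94 CPM. Gtf2a1l in SG overlapped Leydig cells, with control replicates 1 and 2 above and 3 and 4 below the Leydig cells of the same mouse, and the estimate left -1.06 to 12.6 CPM beyond free RNA. Crem and Pou5f2 in SG overlapped or lay below Leydig cells too, and the estimate left 21.3 to 25.7 CPM of Crem and 4.17 to 5.86 CPM of Pou5f2, so how much of these levels is background was not settled. Leydig cells held more Crem than the 12.0 to 29.8 CPM that free RNA would bring to a cell, and are no empty reference for it. Taf7l in P and D of the control mice (3.81 to 5.99 CPM) overlapped or lay below the 5.47 to 9.64 CPM of Leydig cells. Free RNA would make up 39.8% to 95.4% of it in P and 35.4% to 80.8% in D, so how much is background was not settled. Mybl1 in SG, with 15.6 to 18.7 CPM, overlapped the 8.95 to 17.3 CPM of Leydig cells, and free RNA would make up 12.1% to 30.1% of it. For Tcfl5 (116 to 130.4 CPM in SG against 19.2 to 38.8 in Leydig cells) and Taf7l (295 to 323 against 5.47 to 9.64), SG lay above Leydig cells in every control mouse. The same held for Sox30 (14.5 to 18.4 against 4.48 to 9.94), Rfx2 (30.2 to 36.7 against 15.2 to 25.4), Tbpl1 (87.4 to 146 against 24.2 to 71.9) and Brdt (61.2 to 67.1 against 39.5 to 54.2).

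The free RNA itself differed between the genotypes. Gtf2a1l in free RNA had 156 and 40.5 CPM in NELF-B cKO and 3.17, 50.8 and 37.9 CPM in TDP-43 cKO, and the spermatid genes together had 578.1 to 3677 CPM in the control mice, 3738 and 100.3 in NELF-B cKO and 36.6 to 183.6 in TDP-43 cKO. Taf7l differed the other way, with 34.4 to 55.7 CPM in free RNA of the control mice, 81.9 and 103 CPM in NELF-B cKO and 159.5, 239 and 272 CPM in TDP-43 cKO. Counts or values after subtraction of the estimated free RNA stand beside a number of the results below.

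**Figure D2:**
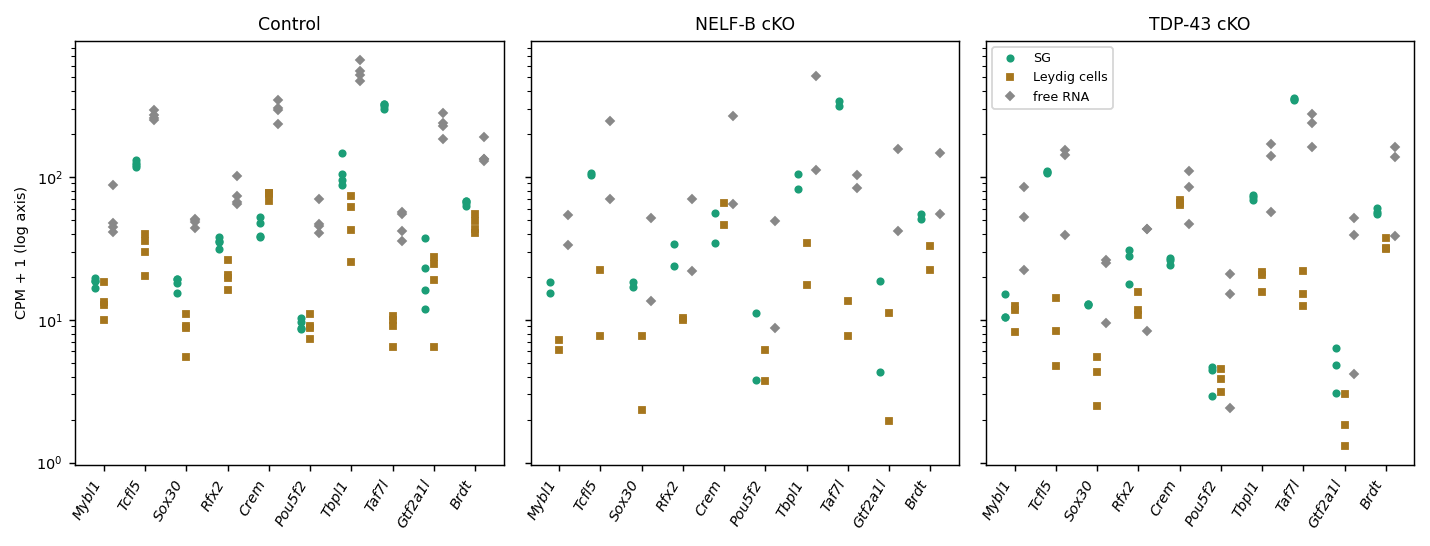
Level of each gene (CPM + 1, log axis) in SG, in Leydig cells and in barcodes of 1 to 100 UMIs (free RNA), with 1 point per mouse and 1 panel per genotype. In the control mice Gtf2a1l, Crem and Pou5f2 in SG lie below free RNA and overlap or lie below Leydig cells, whereas Taf7l in SG lies above both.

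The cells from SG to Z were then compared between the genotypes as 1 sum per mouse of SG, pL, L and Z, which is the comparison the study made. As the study did, germ cells of the cKO mice in which Nelfb or Tardbp, respectively, was still detected were dropped. In the TDP-43 cKO mice, all 10 genes passed the test at an adjusted p under 0.05, 9 of them lower and Taf7l higher (edgeR quasi-likelihood test, Benjamini-Hochberg over 19877 genes). Of all genes tested, 17.4% were called lower and 7.23% higher. The TDP-43 cKO count was lower under some alternatives. With cells in which Tardbp was detected dropped from the control mice too, 4 of the 10 were called, Taf7l (0.43 ± 0.07) higher and Crem (-0.65 ± 0.13), Tbpl1 (-0.71 ± 0.16) and Gtf2a1l (-2.66 ± 0.54) lower, and Brdt stood at 0.19 ± 0.17. Of all genes, 3.51% were called lower in that fit. With a replicate block, 5 were called, Taf7l higher and Sox30, Rfx2, Crem and Gtf2a1l lower, with no share of all genes beside them. The median log2 fold change was -1.04 for the 10 genes and -0.01 for all genes. In the NELF-B cKO mice, 3 of the 10 were called, Tcfl5 and Brdt lower and Taf7l higher, where 2.87% and 1.61% of all genes were. The same 4 control mice serve both comparisons. In a bulk sum of this kind, fewer cells of a late stage and less RNA per cell cannot be told apart.

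**Figure D3:**
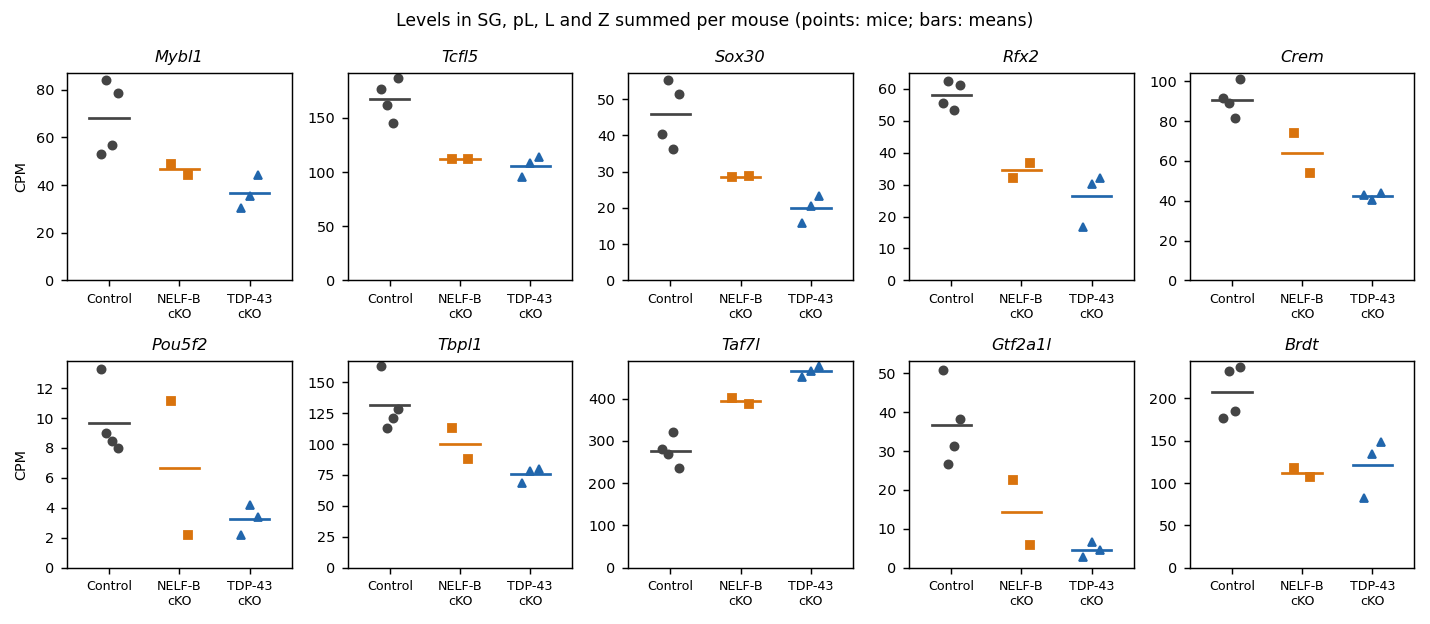
Level of each gene in SG, pL, L and Z summed per mouse (CPM, linear axis from 0, own scale in each panel) for 4 control, 2 NELF-B cKO and 3 TDP-43 cKO mice; points are mice and bars are group means. Taf7l is higher in all 5 cKO mice than in the control mice, and Mybl1, Tcfl5, Brdt, Sox30, Rfx2 and Crem are lower in all 5.

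Taf7l had 281, 268, 320.3 and 235 CPM in the control mice, 401 and 386 CPM in NELF-B cKO and 450.3, 465 and 478 CPM in TDP-43 cKO. All 5 cKO mice lay above all 4 control mice, with log2 fold changes of 0.46 ± 0.11 (adjusted p = 0.0483) and 0.71 ± 0.10 (adjusted p = 0.00262). Tcfl5 had 177, 162, 145 and 187 CPM in control, 112 and 112 CPM in NELF-B cKO and 95.6, 108 and 114 CPM in TDP-43 cKO, without overlap between the control and either cKO. Its log2 fold changes were -0.64 ± 0.12 (adjusted p = 0.0352) and -0.70 ± 0.11 (adjusted p = 0.00363). Brdt had 177, 232, 185 and 237 CPM in control, 118 and 107 CPM in NELF-B cKO and 82.5, 134 and 148 CPM in TDP-43 cKO, again with every cKO mouse below the control mice. It changed by -0.94 ± 0.23 (adjusted p = 0.0488) and -0.81 ± 0.19 (adjusted p = 0.0179) on the log2 scale.

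Among the other factors of the spermatid program, Sox30 had 40.5, 55.2, 36.2 and 51.5 CPM in control, 28.5 and 28.8 CPM in NELF-B cKO and 15.9, 20.6 and 23.3 CPM in TDP-43 cKO. Rfx2 had 55.5, 62.6, 53.4 and 61.3 CPM, 32.2 and 36.8 CPM and 16.7, 30.2 and 32.1 CPM in these groups, and Crem 91.5, 88.9, 81.6 and 101 CPM, 73.9 and 53.7 CPM and 43.0, 40.2 and 43.7 CPM. For these 3 genes the cKO mice lay below all control mice. In the TDP-43 cKO the log2 fold changes were -1.24 ± 0.18 (adjusted p = 0.00295) for Sox30, -1.18 ± 0.19 (adjusted p = 0.00442) for Rfx2 and -1.14 ± 0.14 (adjusted p = 0.00208) for Crem. In the NELF-B cKO they were -0.74 ± 0.20 (adjusted p = 0.064), -0.81 ± 0.22 (adjusted p = 0.0635) and -0.56 ± 0.15 (adjusted p = 0.0659), which did not pass. Mybl1 had 53.0, 84.3, 57.0 and 78.8 CPM in control, 48.9 and 44.4 CPM in NELF-B cKO and 30.3, 35.4 and 44.4 CPM in TDP-43 cKO, and changed by -0.61 ± 0.22 (adjusted p = 0.123) and -0.94 ± 0.19 (adjusted p = 0.00984).

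The genes of late stages were low in these cells. Gtf2a1l had 50.9, 26.7, 31.2 and 38.3 CPM in control, 22.6 and 5.86 CPM in NELF-B cKO and 2.69, 6.55 and 4.44 CPM in TDP-43 cKO, and Pou5f2 13.3, 9.0, 8.46 and 7.99 CPM, 11.2 and 2.20 CPM and 2.22, 4.16 and 3.38 CPM. The TDP-43 cKO mice lay below all control mice for both genes, and the 2 NELF-B cKO mice stood apart from each other. The TDP-43 cKO log2 fold change of Gtf2a1l, -3.04 ± 0.50 (adjusted p = 0.00454), had the largest size among the 10 genes, and that of Pou5f2 was -1.61 ± 0.50 (adjusted p = 0.0453). Tbpl1 had 163, 113, 121 and 129 CPM, 113 and 87.8 CPM and 68.5, 78.5 and 79.9 CPM, with a log2 fold change of -0.84 ± 0.15 (adjusted p = 0.00602) in TDP-43 cKO. In NELF-B cKO the changes were -1.41 ± 0.53 (adjusted p = 0.138) for Gtf2a1l, -0.57 ± 0.55 (adjusted p = 0.555) for Pou5f2 and -0.44 ± 0.17 (adjusted p = 0.146) for Tbpl1. With the estimated free RNA subtracted, the TDP-43 cKO values were -3.27 for Gtf2a1l, -1.41 for Pou5f2 and -0.50 for Tbpl1.

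The stages were mixed in other proportions in the cKO mice, and this moved with the levels. SG gave 31.7% to 46.7% of the UMIs of the sum in the control mice, 52.3% and 63.8% in NELF-B cKO and 64.7% to 69.3% in TDP-43 cKO, and L and Z together gave 27.6% to 48.5%, 9.79% and 16.1%, and 4.46% to 15.3%. The 5 P markers, all with UMIs in every mouse, summed to 389 to 632 CPM in control, 199.9 to 231 in NELF-B cKO and 82.1 to 139 in TDP-43 cKO, and the 7 RS markers to 52.2 to 169.7, 29.8 to 109.7 and 16.1 to 34.7 CPM. These shares and sums follow the removal of cells, which was made in the cKO mice alone. With no cell dropped, the P markers summed to 204.3 and 229.3 CPM in NELF-B cKO and 93.9 to 217.2 in TDP-43 cKO. Among the P markers is Spo11, which the study reports as lower in both cKO. The same stage weights, called equal stage weights here, were then set in every mouse, with SG at 40.4%, pL at 22.1% and L and Z pooled at 37.4% (limma on log2(CPM + 1) of the standardised levels). L and Z were not weighted apart, so the pooled class still held more L in the control mice than in 4 of the 5 cKO mice. On this scale, 6 of the 10 genes were called in TDP-43 cKO, Taf7l higher (1.03 ± 0.07, adjusted p = 5.29e-05) and Gtf2a1l (-2.34 ± 0.34), Rfx2 (-0.66 ± 0.10), Crem (-0.63 ± 0.09), Tcfl5 (-0.51 ± 0.09) and Tbpl1 (-0.48 ± 0.13) lower. Of all genes, 13% were called lower in TDP-43 cKO on this scale. Mybl1 then stood at -0.02 ± 0.15, Pou5f2 at -1.13 ± 0.38, Sox30 at -0.22 ± 0.10 and Brdt at 0.20 ± 0.13, none of them called. In NELF-B cKO, Taf7l alone was called on this scale (0.49 ± 0.08, adjusted p = 0.0393), Brdt turned to 0.03 ± 0.15, and Tcfl5 stood at -0.30 ± 0.10. Brdt and Mybl1, called lower in the sum of TDP-43 cKO, were thus not called at equal stage weights, Mybl1 within 1 SE of 0 and Brdt on the other side of 0.

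**Figure D4:**
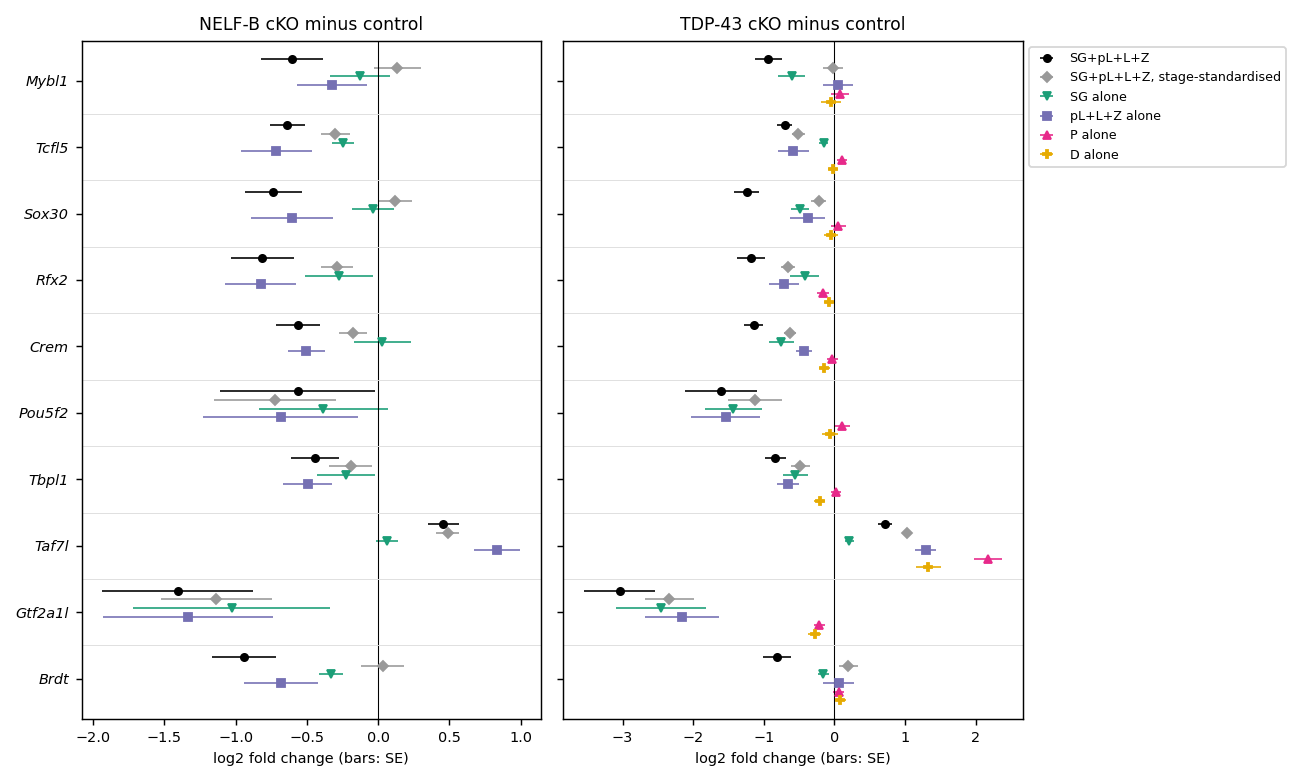
Log2 fold changes (x axis; bars are SE) of the 10 genes in NELF-B cKO (left) and TDP-43 cKO (right) minus control: in the sum of SG, pL, L and Z, in the same sum at equal stage weights, in SG, in pL, L and Z, and, for TDP-43 cKO, in P and D. Taf7l lies to the right of 0 in every comparison shown, which are all before the subtraction of free RNA, and in P and D of TDP-43 cKO the other 9 genes lie between -0.28 and 0.11.

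In NELF-B cKO, the 3 calls rested on single libraries. Without control replicate 1, 2 or 4, NELF-B cKO replicate 2, or TDP-43 cKO replicate 2 or 3 (which share the estimate of the spread), 0 of the 10 genes were called, while the log2 fold changes kept their sign and stayed between 0.40 and 0.53 for Taf7l, -0.70 and -0.57 for Tcfl5 and -1.04 and -0.84 for Brdt over all mice left out in turn. Without NELF-B cKO replicate 1, 3 other genes were called, Gtf2a1l (-2.72), Pou5f2 (-2.20) and Crem (-0.83), without control replicate 3 Taf7l and Tcfl5 were, and without TDP-43 cKO replicate 1 Tcfl5 and Brdt were. DESeq2, the tool of the study, called 8 of the 10 in NELF-B cKO, and edgeR called 0 with a replicate block or with no cell dropped. The DESeq2 count has no share of all genes beside it. In TDP-43 cKO, 9 or 10 genes were called without any 1 mouse, and Pou5f2 was the gene lost, without any 1 of the control or TDP-43 cKO mice (log2 fold changes of -1.83 to -1.38). The 2 cKO groups were also compared with each other, and 0 of the 10 genes differed at an adjusted p under 0.05, beside 0.106% of all genes. At an unadjusted p under 0.05, 3 of the 10 did (Sox30, Crem and Gtf2a1l), DESeq2 called 2, and without NELF-B cKO replicate 2 edgeR called 3. These counts have no share of all genes beside them. The differences of TDP-43 cKO minus NELF-B cKO ranged from -1.64 ± 0.55 for Gtf2a1l to 0.25 ± 0.12 for Taf7l. Without NELF-B cKO replicate 1 the difference was -0.29 ± 0.47 for Gtf2a1l and 0.63 ± 0.43 for Pou5f2, which stood at -1.04 ± 0.57 with it, and 0 were called.

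In SG alone, with no cell left out, the 10 genes were closer between the genotypes. Taf7l had 311, 323, 321 and 295 CPM in control, 314 and 339 CPM in NELF-B cKO and 344, 352 and 357 CPM in TDP-43 cKO, log2 fold changes of 0.06 ± 0.08 and 0.21 ± 0.07. Tcfl5 had 130.4, 116, 120.4 and 125 CPM, 106 and 101 CPM and 106, 106 and 108 CPM, and Brdt 66.8, 64.3, 67.1 and 61.2 CPM, 53.5 and 49.7 CPM and 53.8, 59.1 and 56.2 CPM. For Tcfl5 and Brdt every cKO mouse lay below the control mice, with log2 fold changes of -0.25 ± 0.08 and -0.33 ± 0.09 in NELF-B cKO and -0.15 ± 0.07 and -0.16 ± 0.07 in TDP-43 cKO, without passing the test. With free RNA subtracted, Tcfl5 in SG had 96.6 to 115 CPM in control and 94.5 to 98.0 CPM in TDP-43 cKO, which overlapped, and a log2 fold change of 0.011 ± 0.09. The fit scaled the sums anew after the subtraction, so its sign need not follow these CPM. Sox30 had 18.2, 18.4, 17.1 and 14.5 CPM in control, 17.3 and 15.9 CPM in NELF-B cKO and 11.9, 11.9 and 11.7 CPM in TDP-43 cKO, and Tbpl1 146, 87.4, 104 and 93.5 CPM, 104 and 81.2 CPM and 67.4, 74.1 and 71.0 CPM. Their log2 fold changes were -0.04 ± 0.15 and -0.22 ± 0.20 in NELF-B cKO and -0.49 ± 0.13 and -0.56 ± 0.18 in TDP-43 cKO. Mybl1 had 17.5, 18.7, 17.6 and 15.6 CPM in control, 14.3 and 17.4 CPM in NELF-B cKO and 14.1, 9.51 and 9.45 CPM in TDP-43 cKO, and Crem 51.1, 37.0, 46.4 and 37.7 CPM, 54.6 and 33.6 CPM and 23.0, 25.3 and 26.0 CPM. Both were lower in the 3 TDP-43 cKO mice than in the control mice (log2 fold changes of -0.61 ± 0.19 and -0.75 ± 0.18), and both overlapped the control in NELF-B cKO. The 5 P markers, each with UMIs in every mouse, summed in SG to 132 to 188 CPM in control, 77.8 to 144 in NELF-B cKO and 64.8 to 78.5 in TDP-43 cKO, the 7 RS markers to 40.3 to 155 CPM in control, 26.4 to 96.8 in NELF-B cKO and 16.1 to 28.4 in TDP-43 cKO, and the 3 pL markers to 348 to 417 CPM in control, 258 to 358 in NELF-B cKO and 278 to 292 in TDP-43 cKO. Their part in the differences within SG was not tested. Of the 10 genes, 0 were called in either cKO, beside 0.0379% and 0.00541% of 18493 genes.

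At an unadjusted p under 0.05, 2 of the 10 genes differed in SG of NELF-B cKO (Tcfl5 and Brdt) and 8 in SG of TDP-43 cKO (all but Rfx2 and Brdt). DESeq2 called 0 and 6. No share of all genes is given for either rule, so these counts are not read against a background. Without NELF-B cKO replicate 1 or 2, edgeR called 3 or 4 genes in TDP-43 cKO. The largest differences in SG were those of Gtf2a1l (36.4, 11, 22.1 and 15.2 CPM in control and 2.08, 5.32 and 3.81 CPM in TDP-43 cKO, -2.46 ± 0.63) and Pou5f2 (9.22, 8.69, 7.71 and 7.65 CPM and 1.92, 3.63 and 3.44 CPM, -1.43 ± 0.41). Free RNA could make up 63.1% to 110% and 23.4% to 52.1% of these levels in the control mice. With it subtracted, the differences in TDP-43 cKO were -2.02 ± 1.52 for Gtf2a1l, -1.16 ± 0.40 for Pou5f2, -0.37 ± 0.14 for Crem and -0.13 ± 0.15 for Tbpl1.

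In pL, L and Z without SG, 5 of the 10 genes were called in TDP-43 cKO, Taf7l higher and Rfx2, Crem, Tbpl1 and Gtf2a1l lower, where 6.56% of 17145 genes were called higher and 10.7% lower. Taf7l had 262, 221, 319.9 and 207 CPM in control, 495 and 448 CPM in NELF-B cKO and 694, 543 and 578 CPM in TDP-43 cKO. The TDP-43 cKO difference was 1.29 ± 0.15 (adjusted p = 0.00195) on the log2 scale, and that of NELF-B cKO was 0.84 ± 0.16 (adjusted p = 0.0545), just outside the threshold. Gtf2a1l had 59.4, 40.3, 39.2 and 49.0 CPM, 28.0 and 11.4 CPM and 2.07, 16.1 and 12.3 CPM, and Rfx2 68.2, 87.2, 68.0 and 75.8 CPM, 42.9 and 46.1 CPM and 28.7, 52.6 and 53.3 CPM. Every cKO mouse lay below the control mice for these 2 genes, with TDP-43 cKO differences of -2.16 ± 0.53 (adjusted p = 0.0289) and -0.71 ± 0.21 (adjusted p = 0.0464). Crem, with 115, 134, 113 and 130.4 CPM in control, 94.9 and 88.0 CPM in NELF-B cKO and 88.9, 90.3 and 91.4 CPM in TDP-43 cKO, changed by -0.43 ± 0.11 (adjusted p = 0.0329) in the latter. Tbpl1, with 173, 136, 137 and 145 CPM, 123 and 97.0 CPM and 71.9, 98.7 and 104 CPM, changed by -0.66 ± 0.15 (adjusted p = 0.0256). With free RNA subtracted and no cell dropped, Taf7l alone was called (1.34 ± 0.18), and Gtf2a1l stood at -1.94 ± 0.57, Rfx2 at -0.63 ± 0.19, Tbpl1 at -0.37 ± 0.14 and Crem at -0.22 ± 0.14. With a replicate block 0 were called, Taf7l at an adjusted p of 0.0538. Markers of other stages moved with these levels. The 5 P markers summed in pL, L and Z to 597 to 893 CPM in control, 324 to 435 in NELF-B cKO and 185 to 453 in TDP-43 cKO, and the 3 pL markers to 234 to 405 CPM in control, 468 to 758 in NELF-B cKO and 451 to 849 in TDP-43 cKO. Their part was not tested. Mybl1 (0.05 ± 0.21) and Brdt (0.06 ± 0.22) stood close to 0, and the sign of each turned when some of the mice, one at a time, or the cells in which Tardbp was detected were dropped.

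In NELF-B cKO, 0 of the 10 genes were called in pL, L and Z, beside 0.484% of all genes, and 7 had an unadjusted p under 0.05, Tcfl5, Rfx2, Crem, Tbpl1, Gtf2a1l and Brdt with a negative sign and Taf7l with a positive one. DESeq2 called 4, and edgeR without TDP-43 cKO replicate 1 called 6. The unadjusted count and these fits have no share of all genes beside them. The TDP-43 cKO count of 5 went to 1 without control replicate 1 or 4 or TDP-43 cKO replicate 3, to 2 without TDP-43 cKO replicate 1, and to 3 without control replicate 2 or TDP-43 cKO replicate 2, with Taf7l among those called each time (log2 fold changes of 1.19 to 1.41). Without TDP-43 cKO replicate 1, Rfx2 stood at -0.47.

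pL and Z were also compared one at a time, a comparison added after the data had been seen. In Z, Taf7l had 37.8, 54.8, 67.2 and 45.2 CPM in control, 333 and 350.3 CPM in NELF-B cKO and 717, 450.4 and 512 CPM in TDP-43 cKO. These were the largest differences among the 10 genes, 2.63 ± 0.21 (adjusted p = 0.000112) and 3.39 ± 0.19 (adjusted p = 1.98e-06) on the log2 scale. Of the other genes, Gtf2a1l (-1.35 ± 0.37) and Crem (-0.50 ± 0.14) were called lower in Z of NELF-B cKO, which makes 3 of 10 beside 9.1% of 13846 genes. In TDP-43 cKO, 7 of 10 were called beside 32.9% of all genes, with Gtf2a1l (-1.79 ± 0.30), Pou5f2 (-1.38 ± 0.45), Crem (-0.72 ± 0.12), Rfx2 (-0.59 ± 0.16), Tcfl5 (-0.57 ± 0.16) and Tbpl1 (-0.34 ± 0.12) lower. Crem in Z had 151, 159, 157 and 165 CPM in control, 110.4 and 129.6 CPM in NELF-B cKO and 94.6, 103 and 99.6 CPM in TDP-43 cKO, without overlap. Mybl1 in Z had 109, 174, 138 and 137 CPM, 166 and 126 CPM and 135, 141 and 153 CPM, which overlapped throughout (-0.06 ± 0.18 and -0.02 ± 0.16), and Brdt in Z did so too (0.07 ± 0.19 and 0.16 ± 0.17). With free RNA subtracted, Taf7l in Z was called in both (2.72 ± 0.24 and 3.53 ± 0.23) and was the 1 gene called in NELF-B cKO, while in TDP-43 cKO Gtf2a1l, Crem, Rfx2 and Tcfl5 were also called and Pou5f2 (-1.17 ± 0.58) and Tbpl1 (-0.013 ± 0.12) were not.

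The stage markers themselves differed between the genotypes within Z. The 5 P markers, each with UMIs in every mouse, summed to 1091 to 1239 CPM in Z of control, 861 to 879 in NELF-B cKO and 421 to 728 in TDP-43 cKO, and the 4 L markers to 288 to 355, 335 to 598 and 553 to 926 CPM. The 3 pL markers summed to 25.8 to 44.3, 74.2 to 78.4 and 134 to 193 CPM, with every cKO mouse above the control mice. Their part in the differences within Z was not tested. In pL, 0 of the 10 genes were called in NELF-B cKO (beside 0.322% of 14912 genes), and 5 in TDP-43 cKO (beside 9.38%). Mybl1 was higher in pL of TDP-43 cKO, with 28.9, 56.5, 50.5 and 47.4 CPM in control and 74.4, 64.9 and 76.0 CPM in TDP-43 cKO (0.72 ± 0.19, adjusted p = 0.0477), and Taf7l too, with 426, 526, 482 and 470.2 CPM and 686, 654 and 674 CPM (0.57 ± 0.09, adjusted p = 0.0392). Rfx2 (-0.76 ± 0.17), Tbpl1 (-0.97 ± 0.25) and Gtf2a1l (-3.40 ± 0.92) were lower. Markers moved within pL too. The 4 L markers summed to 779 to 1156 CPM in control, 973 to 1095 in NELF-B cKO and 1416 to 1881 in TDP-43 cKO, the 4 Z markers to 1813 to 2741 CPM in control, 2970 to 3049 in NELF-B cKO and 3473 to 4107 in TDP-43 cKO, and the 5 P markers to 188 to 278 CPM in control, 79.1 to 211 in NELF-B cKO and 105 to 125 in TDP-43 cKO, and their part was not tested. With free RNA subtracted, edgeR called 0 of the 10 in pL of TDP-43 cKO, where 8 had an unadjusted p under 0.05 and Mybl1 stood at 0.83 ± 0.22 (adjusted p = 0.0817). The unadjusted count has no share of all genes beside it.

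Whether the step from SG to pL, L and Z differed between the genotypes was tested with a stage by genotype term, with the mouse as a block. In TDP-43 cKO, the log2 change of Taf7l over this step was higher than in control by 1.19 ± 0.13 (adjusted p = 0.00566), and it was the 1 gene of the 10 that was called, beside 2.13% of 19246 genes. The median over all genes was 0.14 on this scale. Taf7l fell from 311, 323, 321 and 295 CPM in SG to 262, 221, 319.9 and 207 CPM in pL, L and Z of the control mice, and rose from 344, 352 and 357 to 694, 543 and 578 CPM in TDP-43 cKO. Without TDP-43 cKO replicate 3 the difference was 1.21, with an adjusted p of 0.0572. With a replicate block it was 0.95 ± 0.12, with an adjusted p of 0.0939, and with cells in which Tardbp was detected dropped it was 1.39 ± 0.11 and Mybl1 and Tcfl5 were called as well. In NELF-B cKO the difference was 0.78 ± 0.15 (adjusted p = 0.181), and 0 of the 10 genes were called beside 0.0052% of all genes. At an unadjusted p under 0.05, Rfx2 (-0.53 ± 0.20) and Taf7l differed in NELF-B cKO, and DESeq2 called 1 gene. Neither has a share of all genes beside it. For Mybl1 the TDP-43 cKO difference was 0.80 ± 0.29 (adjusted p = 0.143).

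In the few P and D SC of TDP-43 cKO replicates 2 and 3, none of the 9 genes other than Taf7l differed from the control mice at an adjusted p under 0.05, and Taf7l differed at a level that free RNA could make up. In P, Tcfl5 had 450.4, 476, 444 and 473 CPM in control and 478 and 525 CPM in TDP-43 cKO, Rfx2 121, 139.6, 133 and 124 CPM and 115 and 118 CPM, and Brdt 290.4, 317, 319.5 and 289.7 CPM and 309 and 328 CPM. The log2 fold changes of the 9 genes other than Taf7l ran from -0.21 ± 0.08 for Gtf2a1l to 0.11 ± 0.07 for Tcfl5 in P. In D they ran from -0.28 ± 0.09 for Gtf2a1l to 0.08 ± 0.08 for Brdt. Pou5f2, which peaks in D, had 167, 175, 157 and 204 CPM in control and 167 and 183 CPM in TDP-43 cKO (-0.06 ± 0.11), and Tbpl1 had 809.9, 792, 788 and 823 CPM and 679.8 and 759.7 CPM (-0.21 ± 0.08). These values overlapped for Pou5f2, while both cKO mice lay below the control mice for Tbpl1. None of the 9 passed, which with 2 mice does not show that they were equal.

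Taf7l in P had 4.05, 3.81, 5.64 and 4.18 CPM in control and 19.4 and 21.2 CPM in TDP-43 cKO, a log2 fold change of 2.18 ± 0.20 (adjusted p = 0.000482), beside 0.337% of 14817 genes called higher. In D it had 5.99, 5.83, 5.06 and 4.70 CPM and 14.3 and 13.8 CPM, 1.33 ± 0.18 (adjusted p = 0.00758), beside 0.669% of 15088 genes. Both cKO mice lay above the 4 control mice at both stages. The estimated free RNA would bring 18.3 and 20 CPM of Taf7l to a cell of these 2 mice, which is 94.5% of the level of each in P and 128% and 145% in D, against 39.8 to 95.4% and 35.4 to 80.8% in the control mice. Leydig cells of the same mice had 11.5 and 21.1 CPM of Taf7l. With free RNA subtracted, Taf7l in P stood at -0.33 ± 0.89 (adjusted p = 0.926), and in D nothing was left of it in the 2 cKO mice. The share of free RNA rested on 43 and 62 spermatid gene UMIs in Leydig and immune cells of these mice. It was applied unchanged to P and D, and in D it passed the whole of the level. How much of Taf7l at both stages is background was not settled. The 6 SG markers summed in P to 20.7 to 44.0 CPM in control and 47.2 to 57.2 in TDP-43 cKO, and in D to 13.9 to 19.3 and 47.3 to 60.2 CPM. The levels before subtraction rested on 92 and 79 UMIs in P and 88 and 73 UMIs in D of the TDP-43 cKO mice, and on 29 to 103 and 49 to 211 UMIs of the control mice, and the exact 95% Poisson intervals, which cover counting error only, were 15.6 to 23.7 and 16.8 to 26.4 CPM in P of the cKO mice against an upper bound of at most 6.85 CPM in the control mice. Without TDP-43 cKO replicate 2 or 3 the adjusted p in D was 0.0923 or 0.0849, at log2 fold changes of 1.34 and 1.32, and the lone mouse was then assumed to vary like the controls. NELF-B cKO replicate 1, the 1 mouse of its group with enough cells, had 16.6 Taf7l CPM in P and 13.1 in D, above all control mice, with no test, where free RNA would bring 4.87 CPM and its Leydig cells had 12.5 CPM. In RS, where 1 mouse per cKO could be used, Taf7l had 33.1, 38.5, 29.6 and 34.2 CPM in control, 31.7 CPM in NELF-B cKO replicate 1 and 51.7 CPM in TDP-43 cKO replicate 3, where free RNA would bring 20 CPM. Crem in RS had 595, 567, 541 and 579 CPM in control and 493 and 511 CPM in these cKO mice, below the control range, and Sox30 105, 79.5, 123 and 109 CPM against 123 and 121 CPM, within it.

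Taf7l was set beside the other X-linked genes, 1082 genes without Xist. Their share of the UMIs in SG was 1.66, 1.84, 1.77 and 1.84% in the control mice, 1.76 and 1.88% in NELF-B cKO and 1.95, 1.89 and 1.94% in TDP-43 cKO. In Z it was 0.405, 0.484, 0.6 and 0.457% in control, 1.50 and 1.50% in NELF-B cKO and 2.81, 1.87 and 2.10% in TDP-43 cKO, so that every cKO mouse lay above the control mice, as it did for Taf7l. In L of the control mice, a stage with few or no cells in most cKO mice, it was 2.2, 2.4, 2.41 and 2.45%. In P, after the X chromosome is silenced and where the part of free RNA in the share was not tested, it was 0.116, 0.095, 0.111 and 0.107% in control, 0.151% in NELF-B cKO replicate 1 and 0.182 and 0.178% in TDP-43 cKO. A ratio within the X-linked genes was then taken, as a scale added after the data had been seen and with no test. Taf7l gave 18.7, 17.5, 18.2 and 16 of 1000 X-linked UMIs in SG of control, and 17.9 and 18.1 in NELF-B cKO and 17.7, 18.7 and 18.5 in TDP-43 cKO. In Z it gave 9.34, 11.3, 11.2 and 9.88 in control, 22.1 and 23.3 in NELF-B cKO and 25.5, 24.1 and 24.4 in TDP-43 cKO. In L of the control mice it gave 22.3, 22, 22.2 and 19. In P it gave 3.49, 4.01, 5.10 and 3.89 in control, 11 in NELF-B cKO replicate 1, and 10.7 and 11.9 in TDP-43 cKO replicates 2 and 3. The cKO mice lay above the control mice in Z and P on this scale too, and the groups overlapped in SG. Whether the cells named Z were equally far in meiosis in each genotype was not tested. In P, how much of Taf7l in the TDP-43 cKO mice is background was not settled.

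**Figure D5:**
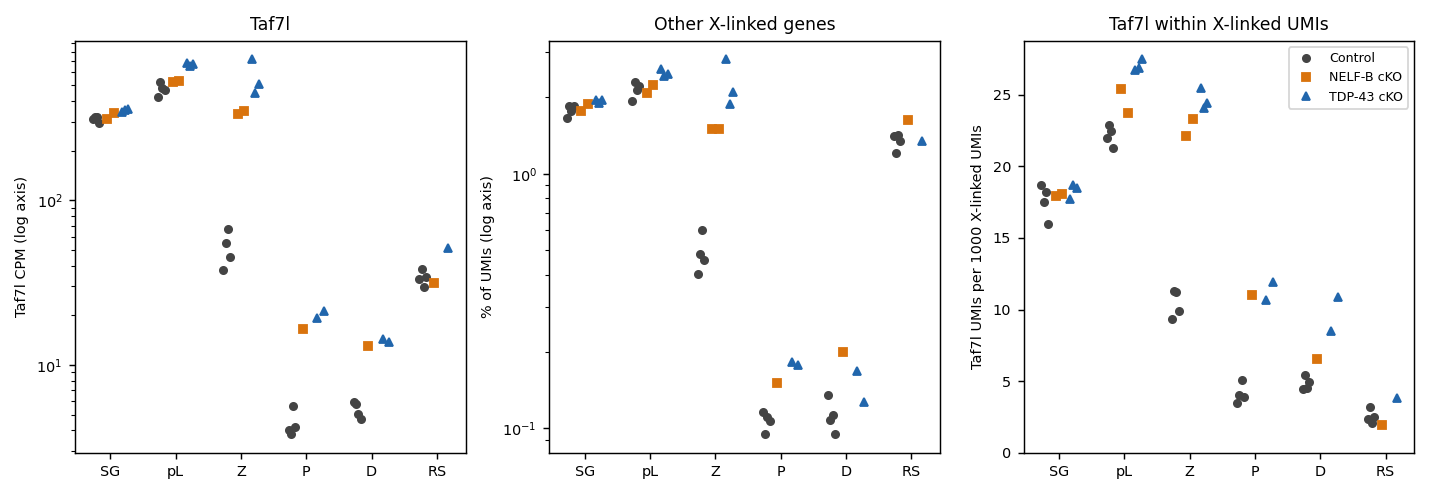
Taf7l (left, CPM, log axis), the other X-linked genes (middle, % of UMIs, log axis) and Taf7l UMIs per 1000 X-linked UMIs (right, linear axis from 0) in SG, pL, Z, P, D and RS, with 1 point per mouse with at least 20 cells and colours and shapes for the genotypes. Both Taf7l and the other X-linked genes are higher in Z of all 5 cKO mice than in the control mice.

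Genes that work with the 10 regulators or under them were counted in the same tests. Of 14 broadly expressed relatives, 13 were tested in SG, pL, L and Z together. In TDP-43 cKO, Taf7, the autosomal relative of Taf7l (0.44 ± 0.08), and Rfx3 (0.37 ± 0.12) were higher and Tbp lower (-0.65 ± 0.11), 3 of 13, and in NELF-B cKO Creb1 was higher (0.48 ± 0.10), 1 of 13, beside the 7.23% higher and 17.4% lower of all genes in TDP-43 cKO and 1.61% higher in NELF-B cKO. Their medians were 0.06 and 0.20, beside -0.01 and 0.00 for all genes. At equal stage weights 2 and 0 of the 13 were called in TDP-43 cKO and NELF-B cKO, and with cells left out of the control mice too 1 and 3. With a replicate block 0 and 0 were called, and with free RNA subtracted 3 and 0. With free RNA subtracted, 0.681% of all genes were called higher and 1.69% lower in NELF-B cKO. For the other alternatives, the shares of all genes called lower, where given, stand beside the partners and A-MYB targets below. The replicate block has none. In Z, 1 of 12 was higher (Rfx3) and 1 lower (Brd3) in TDP-43 cKO and 0 in NELF-B cKO, and subtraction left 1 higher and 0 lower, and 0 in NELF-B cKO. Rfx3 in pL, L and Z had 94.9 to 139 CPM in control and 237 to 278 CPM in TDP-43 cKO (1.11 ± 0.14, adjusted p = 0.00323).

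Of 18 partners and other regulators of meiosis and spermatids, 8 were lower and 3 higher in TDP-43 cKO and 0 passed in NELF-B cKO, with medians of -0.23 and -0.10, where 17.4% of all genes were lower and 7.23% higher in TDP-43 cKO. In TDP-43 cKO 4 were lower and 2 higher at equal stage weights, where 13% of all genes were lower. With cells left out of the control mice too, 2 were lower (3.51% of all genes) and 0 higher. With a replicate block 1 was lower and 1 higher, and with free RNA subtracted 5 were lower (11.2% of all genes) and 2 higher. In NELF-B cKO 3 were lower with cells left out of the control mice too (4.38% of all genes). The lower ones of the first counts were Fhl5, a coactivator of CREM (-3.22 ± 0.72), Creb3l4 (-2.21 ± 0.62), the heat shock factor family member Hsf5 (-2.14 ± 0.32), the meiotic regulators Kctd19 (-2.12 ± 0.38) and Zfp541 (-0.58 ± 0.14), the nuclear receptor Nr2c2 (-0.94 ± 0.22), and the general factors Gtf2a2 (-0.57 ± 0.11) and Gtf2b (-0.48 ± 0.12). The higher ones were the zinc finger factor Egr4 (1.10 ± 0.32) and the TFIID subunits Taf9b (0.67 ± 0.09) and Taf1 (0.39 ± 0.11), both X-linked like Taf7l. In Z, 6.93% of all genes were called higher and 2.17% lower in NELF-B cKO, and 15.1% and 17.8% in TDP-43 cKO. Of 15 partners, 0 were lower in NELF-B cKO and 4 in TDP-43 cKO (Fhl5, Creb3l4, Kctd19 and Hsf5), and 3 were higher in both, Taf1 and Taf9b, by 1.83 ± 0.25 and 2.24 ± 0.24 in NELF-B cKO and 2.48 ± 0.22 and 2.92 ± 0.21 in TDP-43 cKO, and Taf4b (0.80 ± 0.22 and 0.99 ± 0.19), which is autosomal. Subtracting free RNA left 2 of 13 higher in NELF-B cKO, without Taf4b, and 3 higher and 1 lower, Hsf5, in TDP-43 cKO. In D of TDP-43 cKO, with 0.669% of all genes higher, Taf1 was the 1 partner called (1.46 ± 0.29, adjusted p = 0.0483), but with free RNA subtracted it stood at -6.41 ± 2.08 (adjusted p = 0.238) and was no longer called.

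All 7 A-MYB targets of the piRNA pathway were lower in TDP-43 cKO and 4 of 7 in NELF-B cKO, with medians of -1.05 and -0.88, beside 17.4% and 2.87% of all genes called lower. The P markers given above, with 389 to 632 CPM in control and, after the removal of cells, 82.1 to 139 in TDP-43 cKO, moved with these levels. At equal stage weights 6 of the 7 were lower in TDP-43 cKO (median -1.06, 13% of all genes) and 0 in NELF-B cKO (median -0.39, 0.183%). With cells left out of the control mice too, 1, Piwil1, was in TDP-43 cKO (median -0.38, 3.51%), where Mov10l1 stood at 0.22 ± 0.12, and 3 were in NELF-B cKO (median -0.75, 4.38%). With a replicate block 4 and 0 were, and with free RNA subtracted 7 (11.2% of all genes) and 2 (1.69%). Piwil1, which encodes the PIWI protein of pachytene piRNAs, changed by -3.36 ± 0.37 and -1.73 ± 0.39, the Tudor domain genes Tdrd1 by -1.05 ± 0.13 and -0.92 ± 0.15, and Tdrd5 by -1.24 ± 0.16 and -0.91 ± 0.19, and Mael by -0.54 ± 0.10 and -0.57 ± 0.11. Tdrd6 (-2.82 ± 0.69), Tdrd9 (-0.84 ± 0.15) and Mov10l1 (-0.48 ± 0.13) were called in TDP-43 cKO and not in NELF-B cKO, but the difference between the cKO groups was not called for any of the 7. In Z of TDP-43 cKO, where Mybl1 did not differ beyond its error, 6 of the 7 were called lower, beside 17.8% of all genes, and in NELF-B cKO 0 were (beside 2.17%), the TDP-43 cKO values including Piwil1 (-2.06 ± 0.39) and Tdrd6 (-2.11 ± 0.35), and in P and D of TDP-43 cKO 0 of the 7 were called. Within Z of TDP-43 cKO the P markers lay below and the pL and L markers above the control mice, as given above, and their part was not tested. Subtracting free RNA left 5 of the 7 lower in Z of TDP-43 cKO, beside 9.5% of all genes. Of 6 CREM targets, 5 were lower in TDP-43 cKO (17.4% of all genes) and 0 in NELF-B cKO (2.87%). In TDP-43 cKO 2 of the 6 were lower at equal stage weights (13% of all genes) and 1 with cells left out of the control mice too (3.51%). With a replicate block 3 were lower, and with free RNA subtracted 0 of the 5 then tested were (11.2%). In Z, 6 of the 6 were lower in TDP-43 cKO (17.8% of all genes) and 0 were called in NELF-B cKO (2.17% lower). Subtraction left 0 of 5 in TDP-43 cKO (9.5%). In the sum, Tnp2, a transition protein gene, changed by -7.02 ± 2.09 and Prm1, a protamine gene, by -6.57 ± 2.08, and these spermatid transcripts are among those whose level in free RNA differed between the genotypes, as given above. Prm2 in SG had 0.378 to 35.9 CPM in the control mice and 0.033 to 0.0845 CPM in TDP-43 cKO.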

How the data were processed

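scRNA-seq libraries of whole PND24 testes from 9 mice (4 control, 2 NELF-B cKO and 3 TDP-43 cKO) were used. The deposited values are raw UMI counts of each gene in each barcode, made by the authors with Cell Ranger (6.1.1 and 7.0.0 per the labels) on mm10, and the matrices hold all barcodes. The 45132 barcodes that had over 1000 genes and a mitochondrial share under 10% were clustered with scanpy 1.11.5 (3000 variable genes, 40 components, 20 neighbours, Leiden resolution 0.8, seed 7). The 10 genes and the listed genes, 57 in all, were left out of the clustering. Clusters were named from at least 3 stage markers that were 2-fold higher than in other clusters, and clusters with a median under 2000 UMIs or with over 80% of cells from 1 mouse stayed unnamed, limits chosen once the clusters were known. A cluster of low depth beside the others, with none of its own markers among its top genes, stayed unnamed too. In the germ cells this left out clusters of 1727, 1211 and 727 cells, first named P, RS and D. The doublet caller marked 148 named cells (0.61%), which were kept and left out only as an alternative.

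Counts were summed per mouse and stage and tested with the edgeR 4.0.16 quasi-likelihood test (filterByExpr, TMM) in R 4.3.3, with Benjamini-Hochberg adjustment over all genes tested. For the sum of SG, pL, L and Z, germ cells of cKO mice in which Nelfb or Tardbp was still detected were dropped (184 of 3126 in NELF-B cKO and 3088 of 5736 in TDP-43 cKO), and no cell was dropped elsewhere. Alternatives used DESeq2 1.42.0, limma 3.58.1 on log2(CPM + 1) of stage-standardised levels, no filter on low counts, other clustering, subtraction of free RNA (added for single stages after the data were seen), and each mouse left out in turn. Scripts were tested on simulated counts. Replicate numbers are shared by the groups, and the deviations of mice of the same number from their group means correlated at r = 0.344 and 0.327 for control and NELF-B cKO, -0.149, -0.07 and -0.029 for control and TDP-43 cKO, and -0.355 and -0.218 for the 2 cKO. Deviations cancel out within a group, so these 7 values are not independent and cannot decide whether the numbers pair mice. Nothing ties a number to a litter or day, so pairing was not assumed, and a replicate block was fitted as an alternative. Named were all 10 genes, and of the lists the genes called in a comparison. The genes and lists were chosen with earlier results of these data known.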

Additional observations from a re-analysis of the deposited data

Results flagged for a closer look

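Of 80 sets of 4 control values tested for a value far from the others, 2 held one, and chance alone gives about 1 in 20. Pou5f2 in pL, L and Z stood at 15.67 CPM in control replicate 1, with the next mouse at 9.26 CPM, a gap of 0.852 of the range of the group. Sox30 in Z stood at 116.5 CPM in control replicate 2, with the next mouse at 93.8 CPM, a gap of 0.903 of the range.

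The change of Taf7l from SG to pL, L and Z differed between TDP-43 cKO and control mice, by 1.19 on the log2 scale (edgeR quasi-likelihood test of the stage by genotype term, adjusted p = 0.00566). With a replicate block the difference was 0.95, with an adjusted p of 0.0939.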

How the results depend on the processing

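In the sum of SG, pL, L and Z, the 3 genes called in NELF-B cKO became 8 with DESeq2, 1 without the filter on low counts, 1 with free RNA subtracted, 1 at resolution 1.2, 1 at equal stage weights, and 0 with the thresholds of the study (adjusted p under 0.01, log2 fold change of 1 or more), with no cells left out, with only the 2 groups fitted, and with a replicate block. At equal stage weights Mybl1 (0.13), Sox30 (0.12) and Brdt (0.032) changed sign. The 10 genes called in TDP-43 cKO became 4 with the thresholds of the study, 5 with a replicate block, 4 with cells left out of the control mice too and 6 at equal stage weights, and Brdt turned to 0.19 and 0.20 under the last 2. DESeq2 called 2 genes in place of 0 between the cKO groups, 6 in place of 0 in SG of TDP-43 cKO, where Tcfl5 turned to 0.062 with cells left out and free RNA subtracted, and 1 in place of 0 for the change in NELF-B cKO.

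In pL, L and Z of NELF-B cKO, 0 called genes became 4 with DESeq2, 1 without the filter on low counts, 1 with cells left out, 1 with cells left out and free RNA subtracted, and 3 in Z alone, where Brdt stood at 0.068, while in pL alone Mybl1 (0.47), Sox30 (0.078) and Crem (0.0146) changed sign. In TDP-43 cKO, 5 became 1 with the thresholds of the study and 0 with a replicate block. Mybl1 turned to -0.17 and Brdt to -0.26 with cells left out, to -0.092 and -0.18 with free RNA subtracted as well, Crem to 0.23 in pL alone and Mybl1 to -0.0175 in Z alone. For the change in TDP-43 cKO, 1 became 0 with a replicate block and 3 with cells left out. With free RNA subtracted and no cell left out, 5 became 1 in pL, L and Z, 1 became 0 in P and in D of TDP-43 cKO, and Taf7l turned to -0.33 and -8.16 there (the latter with both cKO mice at 0) and Tcfl5 in SG to 0.011. Both subtractions outside the sum with SG, the cells of at least 5000 UMIs, pL and Z alone, and the alternatives for relatives, partners and targets were chosen after seeing the data. The causes were not tested.

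With 1 mouse left out in turn, called genes ranged from 0 to 3 in NELF-B cKO and 9 to 10 in TDP-43 cKO for SG, pL, L and Z, 0 to 3 between the cKO groups, 0 to 0 and 0 to 4 in SG, 0 to 6 and 1 to 6 in pL, L and Z, 1 to 1 in P, 0 to 1 in D, and 0 to 0 and 0 to 1 for the change. Pou5f2 in NELF-B cKO ranged from -2.20 to 0.19 in SG, pL, L and Z and from -2.48 to 0.13 in pL, L and Z, where in TDP-43 cKO Mybl1 ranged from -0.10 to 0.24 and Brdt from -0.14 to 0.28. The stage of the highest level was kept by 8 to 10 of the 10 genes. Of 561 other values under alternatives, 454 kept direction and side of the threshold, and of 489 with a mouse left out 412 did. The removal of cells in P and D was not run, since too few TDP-43 cKO cells were left, and no mouse was left out for pL or Z alone. Few named cells limit P, D and RS in NELF-B cKO, RS in TDP-43 cKO and L in both, which could not be tested there.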
